A study of Mus musculus with 35 samples.

Results

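The genes described here are the 121 genes of mouse chromosome 1 that lie within 10 Mb (10000000 bases) of the start of Per2 and were expressed in hypothalamus. The members were chosen by position and by level: all exons on chromosome 1, the lowest position inside that window, and a mean raw count of at least 10 over the 35 libraries. Per2 itself was left out. The count tables listed 49568 gene names, 417 of them in the window, and 97 of those 417 had no read in any library. All 121 members passed the filter on low counts and were tested.

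PER2 belongs to the negative limb of the circadian clock: with the CRY proteins it represses the CLOCK and BMAL1 transcription factors, which bind the E-box, and kinases that phosphorylate PER2 set its stability and so the length of the day. S662D names a PER2 in which a phosphorylated serine is replaced by aspartate. In the hypothalamus the clock, feeding and metabolism meet. Neighbouring genes of a chromosome tend to be inherited together with an allele of the gene between them, and this linkage weakens with distance.

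The libraries were made from polyA RNA of the hypothalamus of single male mice, all with the strain label B6/J and all taken at ZT16. There were 10 fed and 10 fasted controls, 5 fed and 5 fasted mice with the PER2-S662D genotype, and 5 fasted mice with the genotype label Per2 ko. Fasting lasted 16 h. No fed group carried the knockout label, and the labels gave neither the age of the mice, nor how either allele was made, nor whether mice of a group shared a litter. The p-values measure the spread between these mice.

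Against its label, the Per2 ko group kept Per2 counts: 33.4, 28.2, 29.5, 29.4 and 30.9 counts per 1e6 (CPM), against 26.1 to 33.1 (median 29.0) in fasted controls, a log2 fold change of 0.06 (SE 0.07, edgeR adjusted p = 0.935). These are counts over the whole gene, so the loss of a part of it was not examined, and the group is called the labelled knockout below. In S662D mice Per2 fell by 0.59 on the log2 scale when fed (SE 0.07, edgeR adjusted p = 1.18e-07).

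Gene totals ran from 17959586 to 37027342 counts per library. They reached 21898438 in fed controls, 22036714 in fasted controls and 25814045 in the labelled knockout. Fed S662D libraries had 18237587 to 37027342 counts and fasted ones 21615313 to 34081435. The part of depth in the S662D results was not tested. Marker genes of the hypothalamus summed to between 571 and 820 CPM in every library. The 6 thalamus markers summed to 1285 to 1505 CPM in fed and 1324 to 1487 CPM in fasted controls. They summed to 1247 to 1447 CPM in the labelled knockout, and to 1376 to 1728 CPM fed and 1401 to 1610 CPM fasted in S662D mice. None of these 6 passed in either mutant against controls. Of 7 pituitary markers, Gh and Pou1f1 stayed under 10 counts in every library. Prl reached 10 counts in fasted controls only, and Tshb, Cga, Lhb and Pomc did so in every group. The 7 summed to between 12.9 and 31.1 CPM, with Pomc also among the hypothalamus markers. Markers of the choroid plexus, the tissue that makes cerebrospinal fluid, varied from 24.0 to 1561 CPM within and between groups, and none of the 8 passed the test in any comparison made here. The control mice were split in 2 sets by replicate number, 1 to 5 and 6 to 10. In the file headers their library numbers ran from 121 to 130 and from 141 to 150. The labels do not say whether these sets were separate experiments. Labelled knockout libraries were numbered 136 to 140 and S662D libraries from 171 on. Library number thus went with genotype, and its part in the results was not tested. Of the 5 S662D libraries in each feeding state, 3 carried an additional digit in their library number, whose meaning the labels do not give. The replicates 2, 3 and 4 were those with the digit.

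The stretches just upstream of the genes on which the results turn are given first, since PER2 acts on transcription through the E-box. They are RefSeq sequences of up to 250 bases before the annotated start (build GRCm38.p6, chromosome 1), kept only as far as the gene's first base in the count tables and written 5′ to 3′ on the gene's own strand. Capitals mark the E-box CACGTG, where it occurs. Asb1 (chr1:91540315-91540543, plus strand), Ano7 (chr1:93373646-93373895, plus), Bok (chr1:93685325-93685574, plus) and Gpr55 (chr1:85961056-85961305, minus) are the members that differed in the labelled knockout. Irs1 (chr1:82291440-82291689, minus) differed in fed S662D mice, and Mlph (chr1:90914850-90915084, plus) on fasting.
Asb1: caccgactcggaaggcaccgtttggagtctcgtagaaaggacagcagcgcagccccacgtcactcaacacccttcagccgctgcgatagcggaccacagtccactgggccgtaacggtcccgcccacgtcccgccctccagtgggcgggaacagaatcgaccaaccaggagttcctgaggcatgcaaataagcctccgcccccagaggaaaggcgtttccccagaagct
Ano7: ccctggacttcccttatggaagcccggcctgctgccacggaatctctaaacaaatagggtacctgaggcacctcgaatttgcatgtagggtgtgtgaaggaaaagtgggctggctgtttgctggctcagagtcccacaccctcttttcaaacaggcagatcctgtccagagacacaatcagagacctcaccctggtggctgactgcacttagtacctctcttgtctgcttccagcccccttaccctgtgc
Bok: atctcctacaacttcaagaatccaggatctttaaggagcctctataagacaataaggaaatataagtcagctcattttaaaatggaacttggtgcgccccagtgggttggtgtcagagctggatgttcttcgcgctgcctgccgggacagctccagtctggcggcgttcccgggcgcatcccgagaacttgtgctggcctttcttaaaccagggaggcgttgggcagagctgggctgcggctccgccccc
Gpr55: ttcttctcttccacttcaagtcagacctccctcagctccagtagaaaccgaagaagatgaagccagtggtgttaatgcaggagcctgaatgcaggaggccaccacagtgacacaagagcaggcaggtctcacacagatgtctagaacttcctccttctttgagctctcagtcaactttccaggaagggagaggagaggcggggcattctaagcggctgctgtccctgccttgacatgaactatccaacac
Irs1: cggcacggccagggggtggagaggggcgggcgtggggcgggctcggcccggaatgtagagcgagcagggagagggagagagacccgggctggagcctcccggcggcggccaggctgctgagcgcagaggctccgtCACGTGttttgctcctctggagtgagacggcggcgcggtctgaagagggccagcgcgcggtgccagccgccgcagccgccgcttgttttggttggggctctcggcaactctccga
Mlph: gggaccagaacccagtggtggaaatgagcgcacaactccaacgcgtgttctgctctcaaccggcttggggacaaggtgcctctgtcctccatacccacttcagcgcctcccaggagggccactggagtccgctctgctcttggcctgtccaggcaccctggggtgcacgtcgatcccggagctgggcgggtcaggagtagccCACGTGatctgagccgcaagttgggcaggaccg

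RefSeq upstream sequences were at hand for 100 of the 121 members, in 119 entries. CACGTG, which reads the same on both strands, was in the 250 bases before the RefSeq start in 10 of these 119 entries (8.4%), each of another member, against 6.02% of all 32851 mouse entries. Among the members described below these were Irs1, Mlph and an alternative start of Kif1a inside the gene. The related hexamer CACGTT, searched on both strands, was in 7 of the 119 (5.88%), against 3.85% of all entries. An alternative start of Asb1, inside the gene as counted, was among them. None of the stretches printed for Asb1, Ano7, Bok and Gpr55 held either hexamer, which says only that these letters are not in these windows.

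The labelled knockout was compared with fasted controls. Of 18063 genes tested, 5 passed an adjusted p of 0.05 (0.0277%), and 4 of those 5 were members (with controls 6 to 10 only, 6 of 99): Asb1, Ano7 and Gpr55 were lower and Bok was higher. That is 3.31% of the members, and over all genes 0.0221% were called lower and 0.00554% higher. None of the 1020 other genes tested on chromosome 1 passed. The fifth gene was Rgma, a repulsive axon guidance molecule on chromosome 7 (73375509 to 73419899), which fell by 0.21 on the log2 scale (SE 0.04, edgeR adjusted p = 0.0283). The 4 members also had the 4 lowest p-values of all genes.

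Asb1, a substrate-binding subunit of ubiquitin ligases, starts 0.125 Mb beyond Per2 (91540544 to 91559589). It stood at 46.4, 46.9, 48.8, 47.6 and 45.0 CPM in the labelled knockout and at 55.3 to 64.6 CPM (median 57.8) in fasted controls. The 5 labelled knockout mice were below all 30 other mice, whose lowest value was 52.3 CPM in a fed control. The log2 fold change was −0.32 (SE 0.04, edgeR adjusted p = 1.30e-05). S662D mice stood at 56.7 to 59.6 CPM fed and 55.2 to 60.9 CPM fasted, within the range of controls.

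Gpr55, a receptor for lysophosphatidylinositol on the other side of Per2 (85938318 to 85961007, 5.48 Mb away), was scarce in every group and scarcest in the labelled knockout. It stood there at 0.0536, 0.189, 0.217, 0.237 and 0.326 CPM, which were 1 to 6 counts per library, against 0.485 to 1.38 CPM (median 0.916, 9 to 31 counts) in fasted controls. Here too the 5 values were below those of all 30 other mice. The log2 fold change was −2.12 (SE 0.36, edgeR adjusted p = 0.00265), and at these counts its size is imprecise. In such whole tissue, fewer cells that express a gene and less RNA per cell cannot be told apart.

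Ano7, a membrane protein of the anoctamin family (93373930 to 93404303, 1.96 Mb beyond Per2), stood at 0.751, 0.899, 1.41, 0.867 and 0.977 CPM in the labelled knockout. Fasted controls had 1.52 to 2.64 CPM (median 1.88), so the groups did not overlap, although 1 labelled knockout mouse at 1.41 CPM was above the lowest fed control at 1.26 CPM. The log2 fold change was −0.99 (SE 0.17, edgeR adjusted p = 0.00247). With only the groups compared it did not pass (edgeR adjusted p = 0.0646).

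Bok, a pro-apoptotic member of the BCL-2 family (93685660 to 93695764, 2.27 Mb beyond Per2), was the only one of the 4 that was higher. It stood at 103, 77.9, 93.1, 97.5 and 103 CPM in the labelled knockout against 50.5 to 79.0 CPM (median 64.9) in fasted controls. Mouse 2 of the labelled knockout lay inside the control range and the other 4 lay above it. The log2 fold change was 0.54 (SE 0.09, edgeR adjusted p = 0.00247). Bok was among the 6 members with the highest level per exon length in fed controls, at 38.7 CPM per kb.

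**Figure D1:**
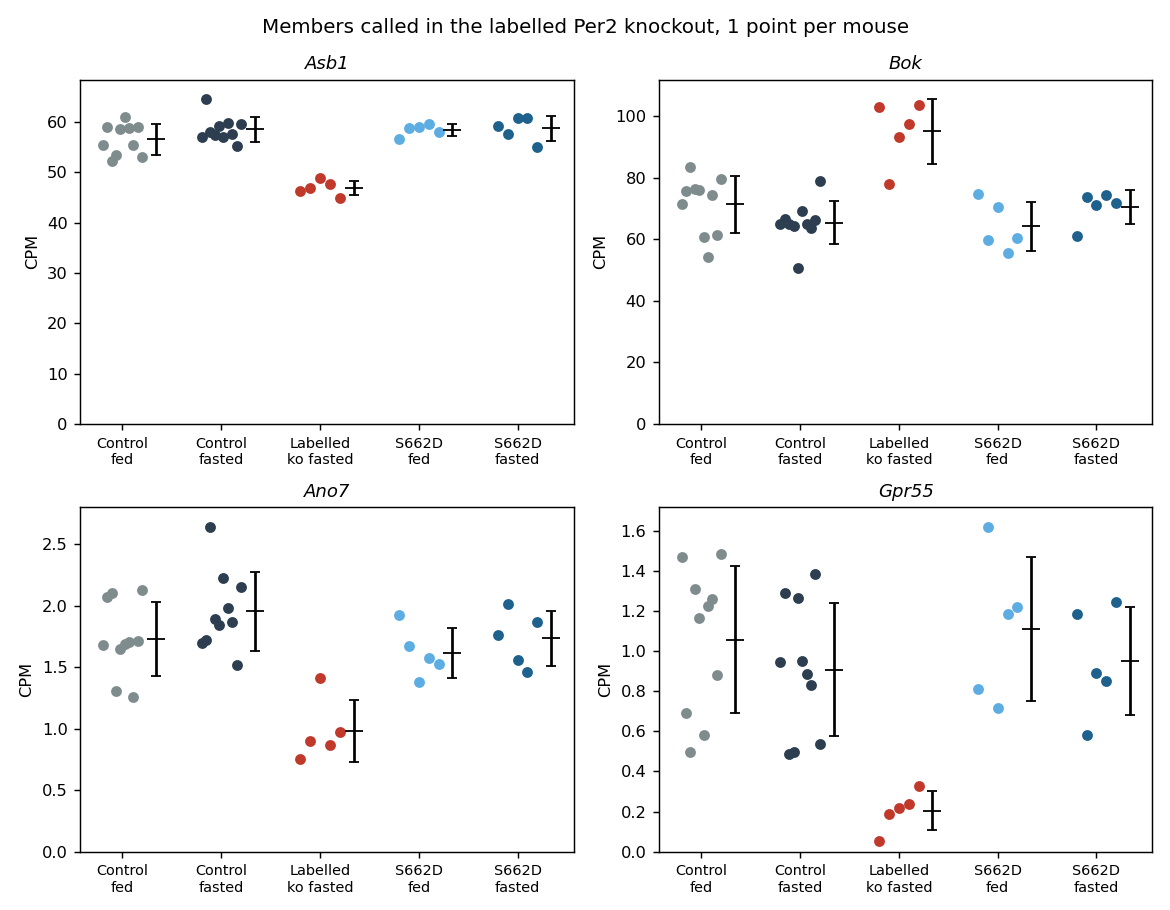
CPM of Asb1, Bok, Ano7 and Gpr55 (vertical axes, from 0) in each mouse of the 5 groups, with the group mean and SD beside the points. Labelled knockout mice (red) were below every other mouse for Asb1 and Gpr55, and below every fasted control for Ano7. For Bok 4 of them were above every fasted control and 1, at 77.9 CPM, was not.

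The same 4 members differed in the same direction against either set of controls. Both comparisons reuse the labelled knockout mice, and part of the controls, by which these members were picked. Against controls 1 to 5 the log2 fold changes were −0.33 for Asb1, 0.61 for Bok, −1.0 for Ano7 and −2.10 for Gpr55, with edgeR adjusted p = 3.83e-04 for Asb1 and Bok and 0.0737 for Ano7 and Gpr55. Against controls 6 to 10 they were −0.30, 0.47, −0.99 and −2.14, and all 4 passed. The control sets themselves, compared with the feeding states together, differed by 0.06 on the log2 scale for Gpr55 and by less for the other 3. No gene passed in that comparison (0%) by edgeR, 19 did by DESeq2 and 70 by edgeR without fasted control replicate 10, and an unadjusted p below 0.05 in edgeR was found for 15 members (12.4%) and 8.74% of all genes.

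The labelled knockout was also tested directly against fasted S662D mice, which share its feeding state. The labelled knockout mice are those by which the 4 members were picked, so this is not an independent test of them. All 4 members passed: the log2 fold changes were −0.32 for Asb1 (edgeR adjusted p = 1.61e-05), −2.19 for Gpr55 (edgeR adjusted p = 5.29e-04), −0.83 for Ano7 (edgeR adjusted p = 0.00429) and 0.43 for Bok (edgeR adjusted p = 0.00775). Against S662D mice without the additional digit (n = 2), Asb1 and Gpr55 still passed and Ano7 and Bok did not, with log2 fold changes of −0.89 and 0.52 (edgeR adjusted p = 0.104 and 0.144).

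Small unadjusted p-values were more frequent in the window than over the rest of the chromosome as a whole. The shares given for the window count the 4 called members too, 1 before Per2 and 3 after it. An unadjusted p below 0.05 was found for 22 of the 121 members (18.2%), 13 lower and 9 higher, against 6.07% of all genes and 6.37% of the other genes tested on chromosome 1. Background shares by direction were 3.27% lower and 2.8% higher. By distance the share was 15.1% of 73 genes in the 10 Mb before Per2 and 22.9% of 48 genes in the 10 Mb after it. It was 3.85% of 78 genes between 20 and 10 Mb before Per2. Between 10 and 20 Mb after Per2 only 15 genes were tested. Of these, 5 had an unadjusted p below 0.05 (33.3%) and none was called. Between 20 and 30 Mb after Per2 the share was 4% of 25 genes. Shares above the 15.1% of the 10 Mb before Per2, but below the 18.2% of the window, also occurred far from it. They were 16.7% of 36 genes between 80 and 70 Mb before Per2 and 17.4% of 23 genes between 70 and 60 Mb before it. Members are not independent of each other, so these shares are a description.

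**Figure D2:**
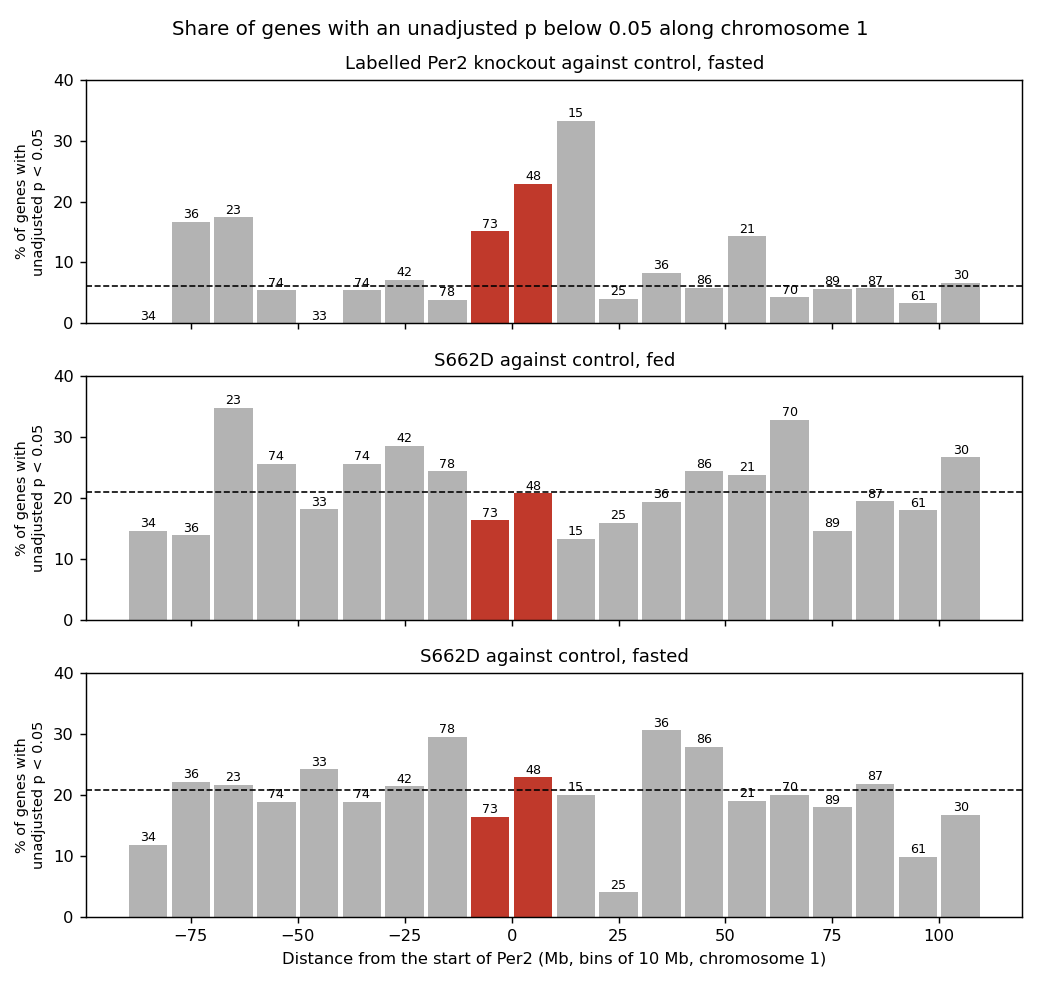
Percent of tested genes with an unadjusted p below 0.05 (vertical axis) in bins of 10 Mb along chromosome 1 (horizontal axis, distance from the start of Per2 in Mb), with the number of genes above each bar, the window in red and the share of all genes as a dashed line. In the labelled knockout the red bars stand at 15.1% and 22.9%, above the 6.07% of all genes, and in S662D mice they lie near the dashed line.

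Efhd1, a calcium-binding protein of mitochondria (87264363 to 87310839), came closest to the threshold among the remaining members. It had 22.4, 24.0, 21.6, 23.7 and 25.6 CPM in the labelled knockout and 25 to 33.9 CPM (median 27.6) in fasted controls, a log2 fold change of −0.28 (SE 0.06, edgeR adjusted p = 0.0755). Against fasted S662D mice, at 28.3 to 34.1 CPM, it passed with −0.42 (edgeR adjusted p = 1.20e-04). Exons of Efhd1os cover 12% of its exon length, and the counts are without strand, so reads of the 2 genes cannot be told apart there. Efhd1, D2hgdh and Klhl30 were chosen for mention after their values were seen.

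D2hgdh, a mitochondrial dehydrogenase of D-2-hydroxyglutarate (93824909 to 93852348), was the fourth member whose ranges did not overlap. It ran from 12.9 to 13.6 CPM in the labelled knockout and from 14.0 to 15.8 CPM in fasted controls, with a log2 fold change of −0.17 (SE 0.06, edgeR adjusted p = 0.738). Fed controls, at 13.0 to 16.8 CPM, reached into the labelled knockout range, and 17.8% of its 50-base words also occur in other transcripts. Such separation of the labelled knockout from fasted controls was found for 4 members (3.31%) and for 0.0941% of all genes, and separation from all 30 other mice for 2 members and 0.0221% of all genes.

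Klhl30, of the kelch-like family, lies 0.065 Mb before Per2 (91351016 to 91362416) and fell short of the count limit with a mean of 6.57. It had 7 to 22 counts (median 13) in the labelled knockout and 2 to 11 (median 4.5) in fasted controls, with a log2 fold change of 1.34 (SE 0.33, edgeR adjusted p = 0.292). A pair of lowly expressed members were lower in the labelled knockout without passing. 4933407L21Rik, which overlaps Gpr55 by 2.12% of its exon length, had 0.706 to 1.85 CPM against 1.80 to 2.96 CPM in fasted controls (log2 fold change −0.79, edgeR adjusted p = 0.292). Sag, which encodes visual arrestin, had 2 to 8 counts against 8 to 13 (log2 fold change −1.30, edgeR adjusted p = 0.416).

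The 5 nearest members on each side of Per2 were described whatever their result. Before Per2 these were Ramp1, a subunit of the receptor for calcitonin gene-related peptide, Ube2f, a NEDD8-conjugating enzyme, Scly, the selenocysteine lyase, Ilkap, a protein phosphatase, and Hes6, a transcription factor. After Per2 they were Traf3ip1, a protein of intraflagellar transport, Asb1, the antisense gene Gm29100, the histone deacetylase Hdac4, and Ndufa10, a subunit of respiratory complex I. Asb1 was the only one to pass in the labelled knockout. Traf3ip1, the gene next to Asb1, had 13.7 to 17.9 CPM against 17.4 to 20.8 CPM in fasted controls (log2 fold change −0.22, SE 0.07, edgeR adjusted p = 0.615). Ramp1 had a log2 fold change of −0.23 and Scly one of 0.19, with an edgeR adjusted p of 0.746 for both, and Ube2f one of 0.06. Ndufa10 stood at 0.03, Hdac4 at 0.02, Ilkap and Gm29100 at 0.01 and Hes6 at −0.0038.

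**Figure D3:**
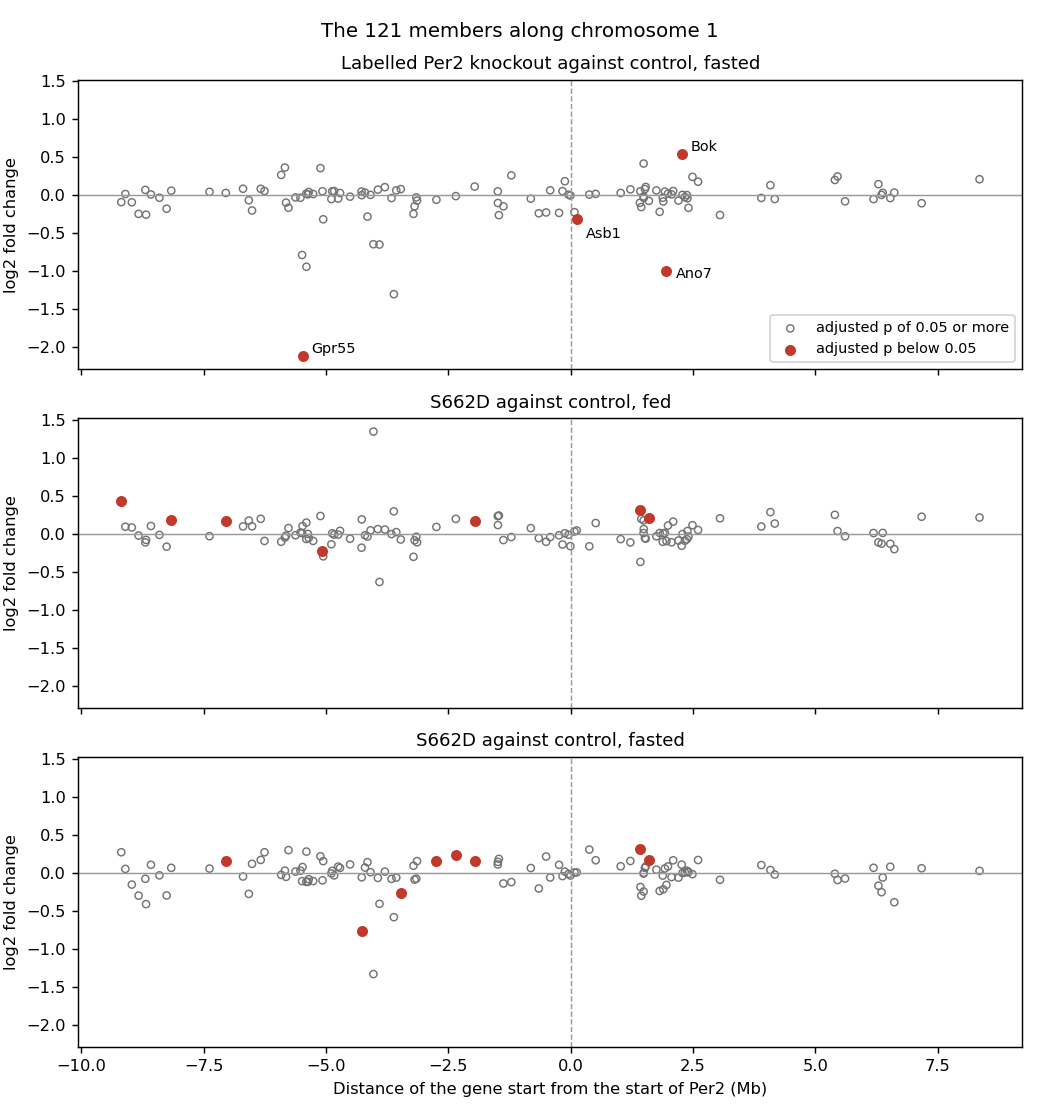
Log2 fold change of the 121 members (vertical axis) by the distance of their start from the start of Per2 (horizontal axis, Mb) in the labelled knockout and in fed and fasted S662D mice, each against controls of the same feeding state. Filled red points passed an adjusted p of 0.05: 4 in the labelled knockout (named), 7 in fed and 8 in fasted S662D mice.

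In fed S662D mice 7 members passed (5.79%), against 4.69% of all genes (3.12% higher, 1.57% lower), so the members' share was near the background. Irs1, Gpc1, Kif1a, Sphkap, Agap1 and Dner were higher and Ncl was lower. In fasted S662D mice 8 members passed (6.61%), against 5.57% of all genes (3.35% higher, 2.23% lower). Gpc1, Sh3bp4, Dner, Agap1, Kif1a and Arl4c were higher, and Usp40 and Gm29374 were lower. An unadjusted p below 0.05 was found for 18.2% of members fed and 19% fasted, against 21% and 20.8% of all genes. No member separated S662D mice from controls of the same feeding state without overlap, in either state, against 0.841% and 0.515% of all genes. The 2 comparisons use separate mice in every group.

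Gpc1, a cell-surface heparan sulfate proteoglycan (92831645 to 92860779), passed in both feeding states. Fed S662D mice had 125, 139, 151, 143 and 115 CPM against 100.2 to 116 CPM (median 107) in fed controls. Fasted S662D mice had 112, 146, 135, 139 and 120 CPM against 87.3 to 116 CPM (median 105) in fasted controls. In each state 4 of 5 S662D mice were above the highest control. The log2 fold changes were 0.32 (SE 0.06, edgeR adjusted p = 9.10e-04) and 0.31 (SE 0.06, edgeR adjusted p = 0.00151). Exons of Ankmy1 overlap 18.9% of its exon length.

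Kif1a, the kinesin motor that carries synaptic vesicle precursors along axons (93015464 to 93101951), had the most counts of all members. It stood at 1407, 1607, 1580, 1673 and 1373 CPM in fed S662D mice and at 1232 to 1448 CPM (median 1314) in fed controls. In fasted mice it stood at 1378, 1475, 1619, 1581 and 1444 CPM against 1265 to 1408 CPM (median 1344). The log2 fold changes were 0.21 (SE 0.04, edgeR adjusted p = 0.00486) and 0.16 (SE 0.04, edgeR adjusted p = 0.0205). In both states replicates 2, 3 and 4 were above every control, and the other 2 mice were not, apart from replicate 5 when fasted.

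Irs1, the insulin receptor substrate that relays insulin signals (82233101 to 82291416), stood at 12.8, 17.6, 20.1, 18.7 and 13.9 CPM in fed S662D mice against 10.3 to 15.2 CPM (median 12.8) in fed controls. The 3 high values were those of the libraries with the additional digit. The log2 fold change was 0.43 (SE 0.09, edgeR adjusted p = 0.00716). When fasted it was 0.27 (SE 0.10, edgeR adjusted p = 0.0881), with 11.3 to 17.0 CPM against 10.95 to 12.9 CPM. Gm9747 overlaps 30.9% of its exon length.

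Of 18 members on a list for kinesins, septins, trafficking and the synapse, 5 rose and none fell in fed S662D mice, and 6 rose and none fell in fasted ones, where 3.12% and 3.35% of all genes were called higher. The list was chosen with earlier results of these data known, so this is a description. Their median log2 fold changes were 0.11 fed and 0.10 fasted, against −0.0076 and −0.0034 over all genes. None of the 18 passed in the labelled knockout, where their median was 0.02. Apart from Gpc1 and Kif1a, those that rose in both states were Dner, a ligand-like membrane protein of neurons (0.17 fed, 0.16 fasted), and Agap1, a regulator of Arf GTPases (0.18 and 0.16). Sphkap, an anchor for protein kinase A, rose when fed (0.18). Arl4c, a small GTPase (0.15), and Sh3bp4, a protein of endocytosis (0.23), rose when fasted. Each of these values is a log2 fold change. With only the groups compared, Dner, Agap1, Arl4c and Sh3bp4 did not pass when fasted, nor did Sphkap when fed. Of 26 alternatives, Dner passed in 16 fed and 11 fasted, and Agap1 in 17 fed and 9 fasted. Sphkap passed in 12 fed, and Arl4c in 17 and Sh3bp4 in 18 fasted.

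The members that fell in S662D mice were few. Ncl, the nucleolar protein nucleolin (86344719 to 86359400), had 268, 215, 221, 215 and 236 CPM in fed S662D mice and 249 to 281 CPM (median 275) in fed controls, a log2 fold change of −0.23 (SE 0.05, edgeR adjusted p = 0.00857). The 4 lower values were below every control. Usp40, of the ubiquitin-specific protease family (87945119 to 88008551), had 19.5, 18.4, 22.7, 19.2 and 19.5 CPM in fasted S662D mice and 19.8 to 29.2 CPM (median 24.0) in fasted controls, a log2 fold change of −0.27 (SE 0.07, edgeR adjusted p = 0.0130). Gm29374, a long noncoding RNA, had 0.490 to 1.32 CPM against 1.00 to 2.04 CPM (log2 fold change −0.77, edgeR adjusted p = 0.0494). It passed in 8 of 25 alternatives.

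The additional digit moved with these results. With the 3 libraries that carry it alone, 16 members passed fed and 17 fasted, and 3106 and 3148 of all genes. With the 2 libraries that lack it, no member passed in either state, and 16 and 21 of all genes did. For Gpc1, fed, the log2 fold change was 0.42 with the digit and 0.16 without it, for Kif1a 0.29 and 0.07, and for Irs1 0.60 and 0.11. Usp40, fasted, was the exception in size, at −0.25 and −0.29. What the digit stands for, and its part in the results, was not tested. Of 6 markers of endothelium and pericytes, 2 were higher in S662D mice in each feeding state, and their summed level was 191 to 229 CPM fed against 183 to 208 CPM in fed controls, which was also not tested.

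**Figure D4:**
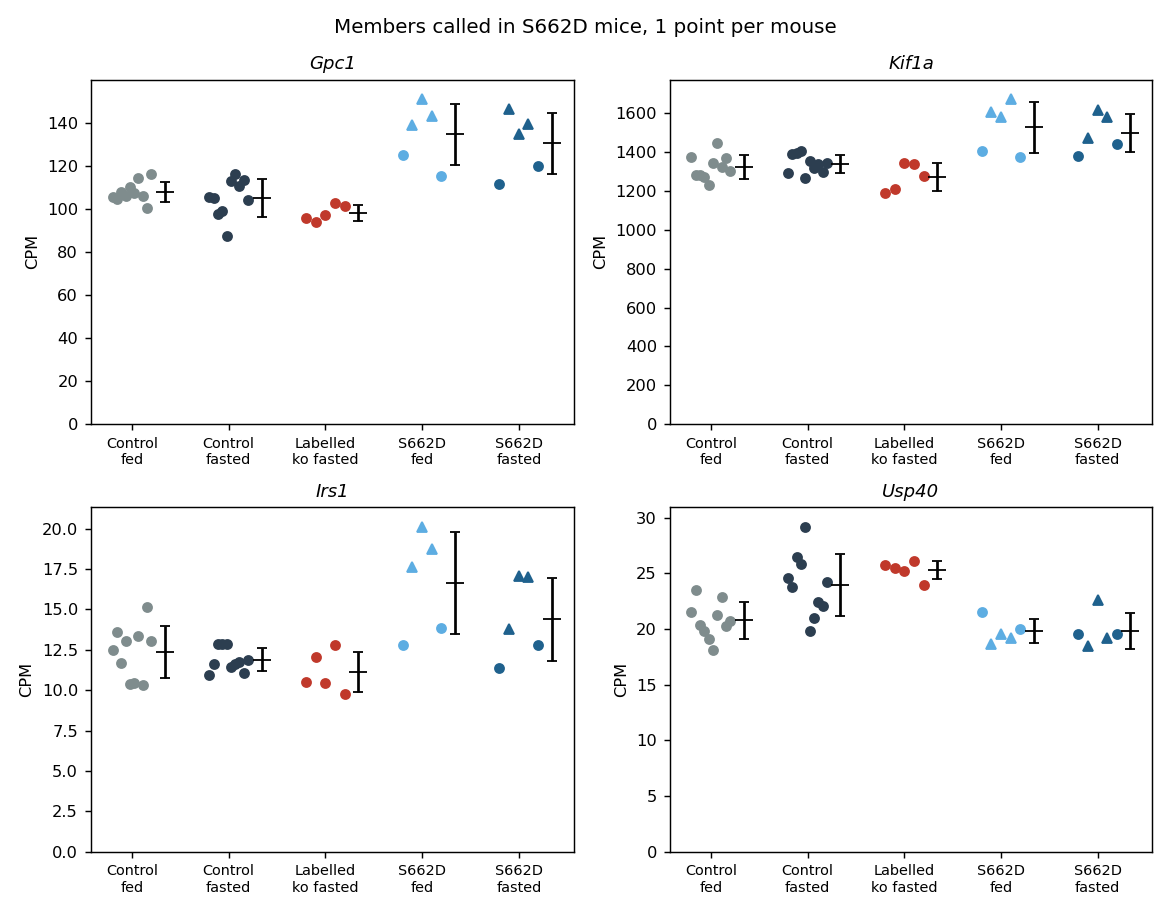
CPM of Gpc1, Kif1a, Irs1 and Usp40 (vertical axes, from 0) in each mouse of the 5 groups, with the group mean and SD, where triangles are the S662D libraries with the additional digit. For Gpc1, Kif1a and Irs1 in fed S662D mice the 3 triangles lie above the 2 circles, and for Usp40 triangles and circles mix.

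The control set also mattered. Against controls 1 to 5 alone 14 members passed in fed and 10 in fasted S662D mice, and against controls 6 to 10 alone 1 did in each state, Gpc1 when fed. With scaling by library size alone, 1 member rose and 5 fell in fasted S662D mice in place of 6 and 2, and 25.3% in place of 60.1% of all called genes were higher. Leaving out replicate 4 of fed S662D left 1 member, and leaving out replicate 2 or 4 of fasted S662D left 1.

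Labelled knockout and S662D mice differed from each other, when fasted, in 17 members (14%), against 7.34% of all genes (2.61% higher, 4.72% lower): 6 were higher and 11 lower in the labelled knockout. With scaling by library size these were 8 and 9. In the same comparison 3 of 6 markers of endothelium and pericytes and 2 of 6 of thalamus were lower and 2 of 8 of hypothalamus were higher in the labelled knockout, and their part in the members' differences was not tested. Besides the 4 genes above, Ackr3, a scavenging receptor for the chemokine CXCL12, was higher. It had 9.92, 13.4, 11.7, 12 and 11.6 CPM in the labelled knockout, 8.03 to 10.3 CPM in fasted S662D mice and 8.93 to 11.1 CPM in fasted controls. Its log2 fold change was 0.39 against S662D (SE 0.09, edgeR adjusted p = 0.00431) and 0.26 against controls (SE 0.07, edgeR adjusted p = 0.451).

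The other members that were higher in the labelled knockout than in S662D mice were Usp40 (0.35), Ppip5k2, an inositol pyrophosphate kinase (0.32), Mff, a factor of mitochondrial fission (0.15), and the antisense gene 5033417F24Rik (0.67), as log2 fold changes. Lower were Efhd1, Gpc1 (−0.41), Irs1 (−0.36), Ramp1 (−0.33), Kif1a (−0.24), Sh3bp4 (−0.24), Arl4c (−0.21) and 4933407L21Rik (−0.67). Of these 8, Gpc1, Kif1a, Sh3bp4 and Arl4c were also higher in fasted S662D mice than in controls, and both comparisons use the same S662D mice. With the additional digit as a term in the fit 4 members passed, and against the 2 libraries without it 2 did.

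Fasting was compared in controls, where 8 members passed (6.61%), against 3.88% of all genes (2.2% higher, 1.68% lower), and 7 of the 8 rose. With controls 6 to 10 only, 2 members passed. Of the marker lists, 2 of 6 for microglia and 2 of 6 for endothelium and pericytes were lower in fasted controls. So were 1 of 6 for thalamus and 1 of 5 for astrocytes. Higher were 2 of 6 for meninges and fibroblasts, 1 of 6 for oligodendrocytes, 1 of 8 for hypothalamus and 1 of 5 for astrocytes. The part of these markers was not tested. In S662D mice 3 members passed (2.48%), against 2.64% of all genes. Mlph, melanophilin, which links Rab27a vesicles to a myosin motor (90915085 to 90951142), had 0.982 to 2.72 CPM (median 1.71) in fed and 1.89 to 3.91 CPM (median 2.77) in fasted controls. In S662D mice it had 2.07, 1.57, 1.49, 1.86 and 1.02 CPM fed and 3.08, 3.52, 3.39, 1.89 and 4.00 CPM fasted. The ranges overlapped in controls, and in S662D mice 1 fasted value lay inside the fed range. The log2 fold changes were 0.67 (SE 0.17, edgeR adjusted p = 0.00947) and 0.99 (SE 0.22, edgeR adjusted p = 0.00559). For Mlph it was 0.77 in control set 1 to 5 and 0.60 in set 6 to 10, which did not pass (edgeR adjusted p = 0.13). In S662D mice Mlph passed neither with the digit-bearing libraries alone (0.84, edgeR adjusted p = 0.0916) nor with the others alone (1.20, edgeR adjusted p = 0.388).

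2810459M11Rik (86045863 to 86055456) fell on fasting in both genotypes. It went from 9.54 to 11.8 CPM (median 10.96) in fed to 5.16 to 10.2 CPM (median 7.95) in fasted controls, and from 9.41, 11.9, 9.94, 11.04 and 11.1 CPM in fed to 8.44, 6.80, 5.84, 7.89 and 7.05 CPM in fasted S662D mice. In S662D mice the ranges did not overlap. The log2 fold changes were −0.45 (SE 0.08, edgeR adjusted p = 3.47e-04) and −0.57 (SE 0.12, edgeR adjusted p = 0.00163). In control set 1 to 5 it was −0.56, and in set 6 to 10 −0.35, which did not pass (edgeR adjusted p = 0.0753). In S662D mice it was −0.69 with the digit-bearing libraries alone. With the others alone it was −0.40 and did not pass (edgeR adjusted p = 0.972). The 5 fasted labelled knockout mice had 7.49 to 8.47 CPM.

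Neu4, a sialidase (94020451 to 94028334), rose in both: from 12.8 to 17.8 CPM (median 13.5) to 14.0 to 19.0 CPM (median 16.5) in controls, and from 13.9 to 16.0 CPM to 16.8 to 20.8 CPM in S662D mice. The log2 fold changes were 0.24 (SE 0.06, edgeR adjusted p = 0.0191) and 0.35 (SE 0.09, edgeR adjusted p = 0.0126), and the S662D ranges did not overlap. In controls the call was lost without fasted replicate 4, and the log2 fold change was 0.34 in set 1 to 5 and 0.12 in set 6 to 10 (edgeR adjusted p = 0.398). Neu4 is among the 6 oligodendrocyte markers and was the only 1 of them called on fasting. Their summed level was 6376 to 8578 CPM in fed and 6681 to 7923 CPM in fasted controls. In S662D mice it was 6440 to 7728 CPM fed and 7286 to 8199 CPM fasted. Its part in the rise of Neu4 was not tested. Col6a3, a chain of collagen VI (0.37), Slc19a3, a thiamine transporter (0.31), Usp40 (0.20), Scly (0.19) and the noncoding B230216N24Rik (0.45) passed in controls, as log2 fold changes. By control set, 1 to 5 and then 6 to 10, Col6a3 changed by 0.55 and 0.19, Slc19a3 by 0.49 and 0.14 and Scly by 0.05 and 0.33. Each of these 3 passed in 1 set only, and Scly was lost in 18 of 28 alternatives.

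No member passed the test of whether fasting acted differently in S662D mice and controls, and neither did any other gene (0%). By unadjusted p below 0.05 in edgeR, 6 members (4.96%) and 6.37% of all genes did. With controls 1 to 5 alone, 5 members and 486 genes passed. Usp40 had an interaction of −0.20 on the log2 scale (SE 0.09, edgeR adjusted p = 0.772), with fasting values of 0.20 in controls and 0.01 in S662D mice. In controls, fasting changed Usp40 by 0.31 in set 1 to 5 and by 0.08 in set 6 to 10. Of 6 markers of meninges and fibroblasts, 2 were higher in fasted controls, Col6a3 among them, and their summed level was 28.8 to 44.9 CPM against 26.4 to 41.0 CPM, whose part in the rise of Col6a3 was not tested.

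**Figure D5:**
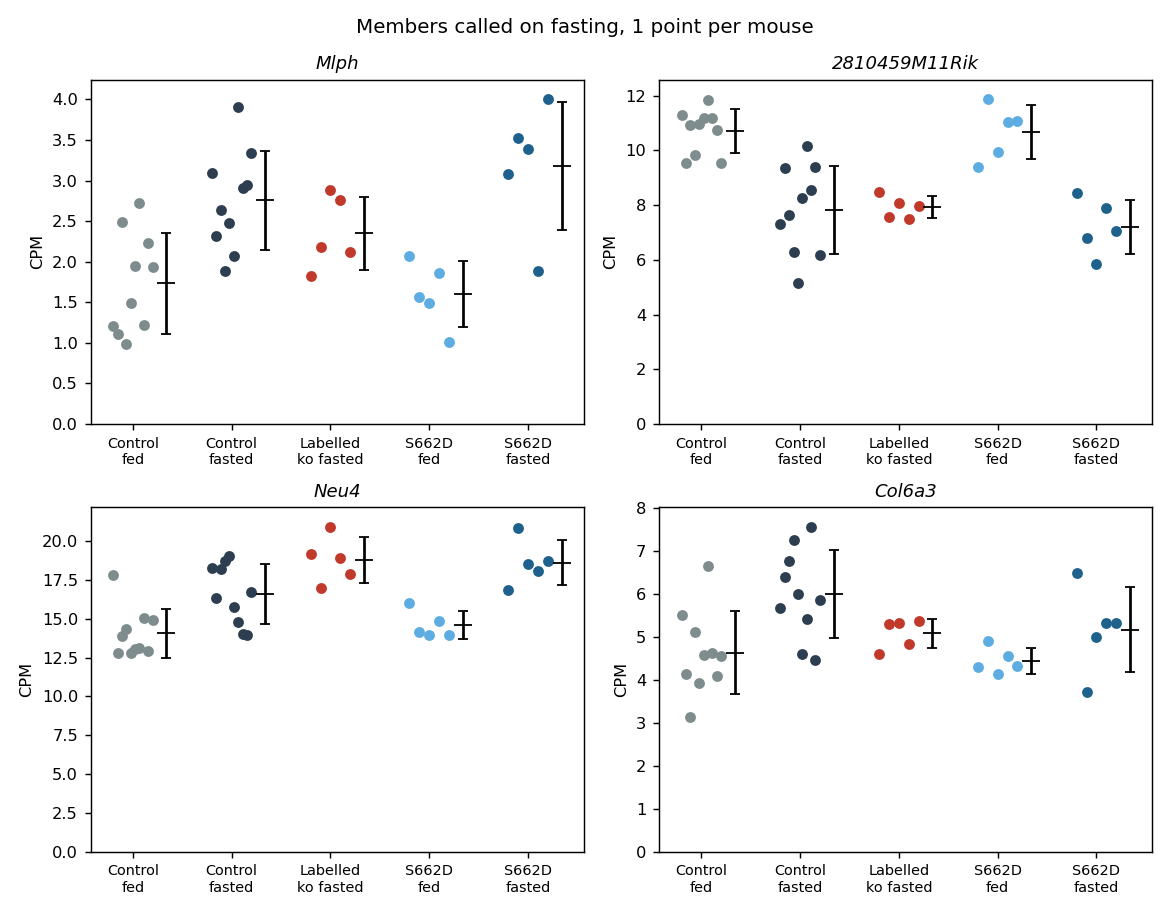
CPM of Mlph, 2810459M11Rik, Neu4 and Col6a3 (vertical axes, from 0) in each mouse of the 5 groups, with the group mean and SD. In S662D mice, 2810459M11Rik was lower and Neu4 higher in every fasted mouse than in every fed one, and Col6a3 overlapped between feeding states in both genotypes.

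By role, the remaining lists held few called members. Of all genes, 0.0277% were called in the labelled knockout, 4.69% in fed and 5.57% in fasted S662D mice. On fasting in controls 3.88% were called. Of 13 members on a list named for protein turnover, which also holds Cab39 and the RNA exonuclease Dis3l2, Asb1 alone passed in the labelled knockout, Usp40 alone in fasted S662D mice and none in fed ones. Of 12 receptors, channels and peptides, Gpr55 alone passed in the labelled knockout and none in S662D mice. Of 8 members on a list named for RNA binding and translation, which also holds Dusp28, Ing5 and Thap4, Ncl alone passed in fed S662D mice. Of 11 members listed for mitochondria and metabolism, none passed in either mutant against controls, and Scly and Neu4 rose in fasted controls. Of 5 extracellular matrix members, Gpc1 rose in S662D mice in both states and Col6a3 in fasted controls. The list for transcription and chromatin (9 members) had 1 called in the labelled knockout, Bok, which is known as a regulator of apoptosis. None of the 3 nuclear body genes (Sp100, Sp110, Sp140) passed in any comparison.

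As a reference outside the window, of 13 core clock partners of PER2 on other chromosomes or farther away, 3 rose and 2 fell in S662D mice in each feeding state (4.69% of all genes were called fed and 5.57% fasted), and none passed in the labelled knockout. The lists, like the window, were chosen with earlier results of these data known.

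Across members, the level per exon length in fed controls was led by Itm2c, an inhibitor of amyloid precursor processing, at 331 ± 16.8 CPM per kb (SD, n = 10). Ptma, prothymosin alpha, followed at 182 ± 16.4, Kif1a at 142 ± 6.70, Dner at 49.2 ± 2.02 and Ndufa10 at 46.2 ± 2.54. Itm2c and Ptma differ by more than their spread, and so do Ptma and Kif1a in mean, although the lowest Ptma value (153 CPM per kb) lay below the highest of Kif1a (155). Dner (47.3 to 53.9) and Ndufa10 (42.9 to 51.0) overlapped. Of Ptma's 50-base words 20.4% occur in other transcripts, so its level is uncertain. Itm2c and Ptma differed between no groups by the test.

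Among members with a mean of at least 100 counts, spread between fed control mice was like that of all such genes. Members with fewer counts were not compared with other genes. For the 77 members with a mean of at least 100 counts, the median coefficient of variation in fed controls was 7.15%, against 7.16% over all 12206 such genes. Cab39, a scaffold of the LKB1 kinase, was lowest at 1.98%. Kcnj13, a potassium channel, varied from 0 to 3.02 CPM in fed and 0 to 3.80 CPM in fasted controls and passed in no comparison. It is among the 8 choroid plexus markers, and 49.1% of its exon length is shared with Gigyf2. The part of either in its spread was not tested. Of the 121 members 30 have counts that are uncertain by shared sequence, 19 by exon overlap of at least 10% and 14 by shared words of at least 10%.

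At the edges of the window rule, Spata3 (mean count 10.9) and Sag (10.7) were just inside the count limit and Rpl19-ps1 (9.49) and BC055308 (9.03) just outside. By distance from Per2, Irs1 at −9.18 Mb and Cntnap5b at 8.36 Mb were the outermost members, and Nyap2 at −10.3 Mb and Cdh20 at 13.4 Mb the nearest genes left out. Negative distances are toward the start of the chromosome.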

How the data were processed

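Hypothalamus RNA of 35 mice was sequenced as 1 library each, with paired reads of 150 bases. The authors deposited raw counts per gene name, made with featureCounts 2.0.1 on GENCODE vM12 (mm10), per the file headers. There, every alignment of a multi-mapping read was counted and no strand option was set, so near-identical and overlapping genes are uncertain. STAR 2.7.10b is named in the submitters' processing notes.

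Groups came from the labels. Counts were filtered by group (filterByExpr, minimum count 10), scaled by TMM and fitted for all 35 libraries together with edgeR 4.0.16 (quasi-likelihood test, R 4.3.3), and p-values were adjusted by Benjamini-Hochberg over 18063 genes. A gene is called at an adjusted p below 0.05. The SE is the log2 fold change divided by the root of F. CPM use the TMM-scaled total. The fit was tested on simulated data. Depth was 17959586 to 37027342 counts per library. Coordinates are mm10, counted from 1. DESeq2 1.42.0, other scalings, other filters, subsets of libraries, a replicate block and each library left out were alternatives.

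Named genes are the 5 nearest members on each side of Per2, members called in either mutant against controls, up to 3 of the largest changes in each direction (all where 5 or fewer) in the other comparisons, the members at the edges of the rule and the 5 of highest level per length. Other genes were chosen after their values were seen: Rgma, Efhd1, D2hgdh, Klhl30, Sag, 4933407L21Rik, Cab39, Kcnj13 and those given as completing a count. The members and lists were chosen with earlier results of these data known.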

Additional observations from a re-analysis of the deposited data

Results flagged for a closer look

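In 195 groups of values (the named members in each of the 5 groups), 10 held a mouse set apart from the others by Dixon's gap at 95%, and chance alone flags about 5% of such groups. In fasted controls these were Asb1 in replicate 2, at 64.6 CPM with the others at 55.3 to 59.9 CPM, and Ilkap in replicate 4, at 40.1 CPM with the others at 34 to 36.9 CPM. In fed controls they were Neu4 in replicate 1 (17.8 CPM, others 12.8 to 15.1), Spata3 in replicate 1 (1.10 CPM, others 0.32 to 0.69) and Ube2f in replicate 7 (34.2 CPM, others 40.7 to 46.1). In the labelled knockout replicate 2 was low for 5033417F24Rik (2.41 CPM, others 2.84 to 2.95) and for Rhbdd1 (10.3 CPM, others 12.1 to 12.7). In fasted S662D mice Bok was low in replicate 1 (60.9 CPM, others 71.2 to 74.5), Sag was high in replicate 5 (0.41 CPM, others 0.31 to 0.34) and Usp40 was high in replicate 3 (22.7 CPM, others 18.4 to 19.5).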

How the results depend on the processing

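Where a member was called, its fold change in that comparison kept its sign under the alternatives run. Signs of the other fold changes were not followed. The split of calls did reverse with scaling by library size. In fasted S662D mice 1 member was then higher and 5 lower, in place of 6 and 2. In the labelled knockout against fasted controls, 4 members passed, 2 with controls 1 to 5 only, and 4 to 5 with each library left out. In fed S662D mice, 7 passed, 14 with controls 1 to 5 only, 1 with controls 6 to 10 only, 16 with the digit-bearing libraries only, 0 with the others only and 0 with the digit as a term. In fasted S662D mice, 8 passed, 2 with only the groups compared, 1 with controls 6 to 10 only, 17 with the digit-bearing libraries, 0 with the others and 0 with the digit as a term. Leaving out 1 library gave 1 to 11 members in each of the fed and fasted S662D comparisons. The fewest fed came without S662D replicate 4 (1), 3 (2) and 2 (3), then control replicates 3 and 5 (4 each), and the most without S662D replicate 5. Fasted, S662D replicates 2 and 4 (1 each) and 3 (2) and control replicates 1, 6, 7, 8 and 9 (5 each) mattered. Gpc1 was kept without any 1 library in both states, and the 4 labelled knockout members were kept likewise.

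Between labelled knockout and S662D mice 17 members passed, 2 against the libraries without the digit, 4 with the digit as a term, and 11 to 20 with 1 library left out (11 without labelled knockout replicate 2 or 5 or S662D replicate 2). On fasting in controls 8 passed, 5 with no filter, 5 with only the groups compared, 2 with controls 6 to 10 only, and 3 to 8 with 1 library left out (3 without fasted replicate 4; 4 without fasted 3 or fed 6; 5 without fasted 5 or fed 2, 5, 7, 8 or 10). On fasting in S662D 3 passed, 5 by library size only (44.4% of all calls higher in place of 68.5%), 0 without the digit-bearing libraries, and 2 to 5 with 1 library left out (5 without replicate 1 of either state). The interaction had 0, and 5 with controls 1 to 5 only. A window of 5 Mb gave 77 members. The cause of these moves was not tested.

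Over all genes, the 847 calls of fed S662D mice became 1741 with controls 1 to 5, 33 with controls 6 to 10, 1355 by DESeq2, 3106 with only digit-bearing S662D libraries, 16 with only the rest, and 23 with a term for the digit. The 1007 of fasted S662D mice became 1680, 48 and 291 with controls 1 to 5, with controls 6 to 10 and with only the groups compared, and 3148, 21 and 20 in the 3 settings of the digit. The 5 of the labelled knockout became 99 with controls 6 to 10, 2 with controls 1 to 5 and 3 with only the groups compared. Against S662D, 1325 became 476 with only the groups compared and 2986, 26 and 42 in the settings of the digit. On fasting, the 701 of controls became 1315 and 304 with controls 1 to 5 and 6 to 10, and the 476 of S662D mice became 279 with only the groups compared and 7 without digit-bearing libraries. Between the control sets 0 became 19 by DESeq2 and 70 without fasted control replicate 10. The interaction's 0 became 486 with controls 1 to 5 and 9 with digit-bearing libraries only.

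The replicate numbers were not taken to pair the mice, since in no pair of groups did every same-numbered pair correlate above 0.1. Correlations of deviations ran from −0.19 to 0.06 between fed and fasted controls, −0.14 to 0.05 between fasted controls and labelled knockout, −0.05 to 0.24 between fed controls and fed S662D (3 of 5 pairs over 0.1, 3 mice closest to their own number), −0.11 to 0.16 between fed and fasted S662D (2 of 5 pairs) and −0.02 to 0.10 between fasted controls and fasted S662D (1 of 5). With the replicate block, 5 members passed in fasted S662D, 6 in fed S662D, 4 in the labelled knockout, 15 against S662D, 6 and 3 on fasting in controls and S662D, and 0 in the interaction. With the block, Dner and Agap1 did not pass in either state, nor did Sphkap fed or Arl4c and Gm29374 fasted, while Sh3bp4 and Gbx2 passed fed and B230216N24Rik fasted. Members with a mean under 100 counts had a median coefficient of variation of 23.6% in fed controls, which limits what Gpr55, Ano7 and Sag can show.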
